A study of Mus musculus with 8 samples.

Results

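A set of 9 genes of the hemoglobin and red cell program was followed in brains of E15.5 mouse fetuses whose mothers had or had not been exposed to stress during pregnancy. They were the embryonic globins Hba-x, Hbb-y and Hbb-bh1, the adult globins Hba-a1, Hba-a2, Hbb-bs and Hbb-bt, and the erythroid genes Alas2 and Slc4a1, 9 of the 54752 genes in the count tables. They were chosen by their measured values in these same brains, so their differences between stressed and control brains are given as a description and carry no test. All 8 brains came from wild type fetuses labelled C57BL/6, for which the methods of the study give the substrain C57BL/6Slac. The labels describe whole brains, but a sample sheet of the study lists the tissue as half_whole_brain, so the portion of each brain that was taken is unsure. In the stress group (F34 and F35, females, and M28 and M29, males) the dams went through chronic unpredictable mild stress that ended the day before collection, and in the control group (F36 and F37, females, and M30 and M31, males) the dams were not exposed. Each group was a single litter. Litter and stress cannot be told apart, and every SE, p-value and SD of a group below measures the spread among littermates. An SD over all 8 brains, or over the females or the males, also takes in the difference between the groups.

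Hemoglobin carries oxygen as a tetramer of alpha-like and beta-like globin chains, each holding a heme group. Primitive red cells, which form in the yolk sac and enter the circulation first, make embryonic chains: zeta globin from Hba-x and the epsilon-like and beta-h1 chains from Hbb-y and Hbb-bh1. Definitive red cells, which come from the fetal liver and later the bone marrow, make the adult chains, and at midgestation they take over from primitive cells in the blood. Brain tissue collected with its vessels contains blood, and polyadenylated globin RNA read in a whole brain is read together with that blood. Fewer red cells and less globin RNA per red cell cannot be told apart in such bulk samples.

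The alpha globin genes lie on the plus strand of mouse chromosome 11 (GRCm38) and the beta globin genes on the minus strand of chromosome 7, and in each cluster the embryonic genes come first in the direction of transcription. Hba-x occupies chr11:32276400-32278116, followed by Hba-a1 at chr11:32283511-32284465 and Hba-a2 at chr11:32296489-32297298. Hbb-y occupies chr7:103851749-103853216, followed by Hbb-bh1 at chr7:103841637-103843164, Hbb-bs at chr7:103826534-103828096 and Hbb-bt at chr7:103812524-103813996. Alas2 lies at chrX:150547375-150570638 on the plus strand and Slc4a1 at chr11:102348824-102366203 on the minus strand. No exon base of the 7 globin genes or of Slc4a1 was shared with another annotated gene, whereas 15.48% of the exon bases of Alas2 overlapped Apex2 or Mir3620.

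The promoters of an embryonic and an adult gene of each cluster are shown, so that both classes are seen in both clusters. RefSeq promoter sequence (GRCm38.p6) was at hand for 7 of the 9 genes, all but Hbb-bh1 and Slc4a1. Each line holds the 250 bases before the RefSeq start, 5′ to 3′ on the strand of the gene, and capitals mark matches, on either strand, to GATAA (the core read by GATA factors), CACCC (read by KLF factors), CCAAT (read by NF-Y) and TATAA.
Hba-x, chr11:32276350-32276599, plus strand: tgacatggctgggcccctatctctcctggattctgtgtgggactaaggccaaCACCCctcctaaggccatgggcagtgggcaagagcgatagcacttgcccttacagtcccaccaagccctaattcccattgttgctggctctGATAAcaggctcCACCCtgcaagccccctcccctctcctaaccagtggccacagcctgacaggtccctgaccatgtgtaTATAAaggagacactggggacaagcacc
Hba-a1, chr11:32283422-32283671, plus strand: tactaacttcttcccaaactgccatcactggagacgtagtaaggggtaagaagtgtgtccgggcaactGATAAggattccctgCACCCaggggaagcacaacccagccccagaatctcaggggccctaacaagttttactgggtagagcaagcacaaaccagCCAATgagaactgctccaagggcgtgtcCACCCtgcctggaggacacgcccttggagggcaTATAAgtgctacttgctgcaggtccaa
Hbb-y, chr7:103853208-103853457, minus strand: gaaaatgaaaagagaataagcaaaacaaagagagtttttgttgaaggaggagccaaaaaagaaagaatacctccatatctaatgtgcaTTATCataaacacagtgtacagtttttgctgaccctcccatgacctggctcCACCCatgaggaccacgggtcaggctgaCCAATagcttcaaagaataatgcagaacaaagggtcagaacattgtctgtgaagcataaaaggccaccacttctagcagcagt
Hbb-bs, chr7:103827929-103828178, minus strand: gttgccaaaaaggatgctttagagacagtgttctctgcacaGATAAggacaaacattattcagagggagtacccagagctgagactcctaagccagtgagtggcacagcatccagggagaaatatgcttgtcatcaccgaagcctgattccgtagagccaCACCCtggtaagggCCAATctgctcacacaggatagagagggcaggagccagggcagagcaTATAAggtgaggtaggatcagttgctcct
All 4 windows held a GATAA match and at least 1 CACCC match. GATAA lay 107 to 103 bases before the start in Hba-x, 182 to 178 in Hba-a1, 162 to 158 on the other strand in Hbb-y and 209 to 205 in Hbb-bs. CACCC lay 95 to 91 bases before the start in Hba-x, 111 to 107 in Hbb-y, 60 to 56 in Hba-a1 and 90 to 86 in Hbb-bs, with a further match in Hba-x and in Hba-a1. Hba-x held no CCAAT and Hbb-y no TATAA. No matches overlapped in these 4 windows. Among all 32851 promoter windows of this length, 22.6% held GATAA, 52.0% held CACCC, 33.8% held CCAAT and 22.8% held TATAA, so a single match of this kind is common. These letters are a description of the windows and are not binding data.

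Sequencing depth was even, between 25320109 and 29105710 counts per brain, and TMM scaling factors lay between 0.996 and 1.002. Markers of brain tissue were present throughout: all 12 listed brain genes were measurable, and their summed level lay between 3911 and 4129 CPM (counts per 1000000 counts of a library) over the 8 brains. The 7 globin members together took 0.0352% to 0.0398% of the counts. Of the 9 members, 8 passed the filter on low counts, and Hbb-bh1 did not.

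Of the embryonic globins, Hba-x and Hbb-y were higher in every stressed brain than in any control brain, and Hbb-bh1 was not. Hba-x, which encodes zeta globin, was read at 1.56, 2.15, 1.88 and 1.33 CPM in control F36, F37, M30 and M31 and at 3.22, 4.38, 3.27 and 3.93 CPM in stressed F34, F35, M28 and M29. The groups did not overlap, and the gap between the highest control and the lowest stressed brain was wider than either group's SD. Mean levels were 1.73 ± 0.357 CPM (SD, n = 4) in controls and 3.70 ± 0.557 CPM (SD, n = 4) under stress, a log2 difference of 1.09 (SE 0.15), or 2.13-fold. These values rest on 38 to 61 counts per control brain and 89 to 114 per stressed brain, where counting alone gives a coefficient of variation of 14.4% and 9.90%.

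Hbb-y, which encodes the epsilon-like chain, was read at 3.96, 3.70, 3.62 and 2.14 CPM in the control brains and at 5.64, 6.16, 5.19 and 6.97 CPM in the stressed brains, in the same order. Control M31 was the lowest of all 8 brains for Hbb-y and also for Hba-x. Means were 3.36 ± 0.823 CPM (SD, n = 4) and 5.99 ± 0.764 CPM (SD, n = 4), a log2 difference of 0.84 (SE 0.13), or 1.79-fold. The groups again did not overlap. Without control M31 the log2 difference of Hbb-y was 0.67, and leaving out each brain in turn gave 0.67 to 0.92 for Hbb-y and 0.990 to 1.204 for Hba-x.

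Hbb-bh1, the beta-h1 globin gene that is active earliest in the yolk sac, was at the floor of detection. It had 1, 3, 2 and 0 counts in the control brains and 7, 4, 2 and 0 in the stressed brains. A count of 0 allows up to 3 counts, which is 0.105 CPM in control M31 and 0.103 CPM in stressed M29, counting error only. Of the 8 brains, 6 were at or below that floor, the groups overlapped, and no fold is given. The higher embryonic globin signal therefore came from Hba-x and Hbb-y.

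**Figure D1:**
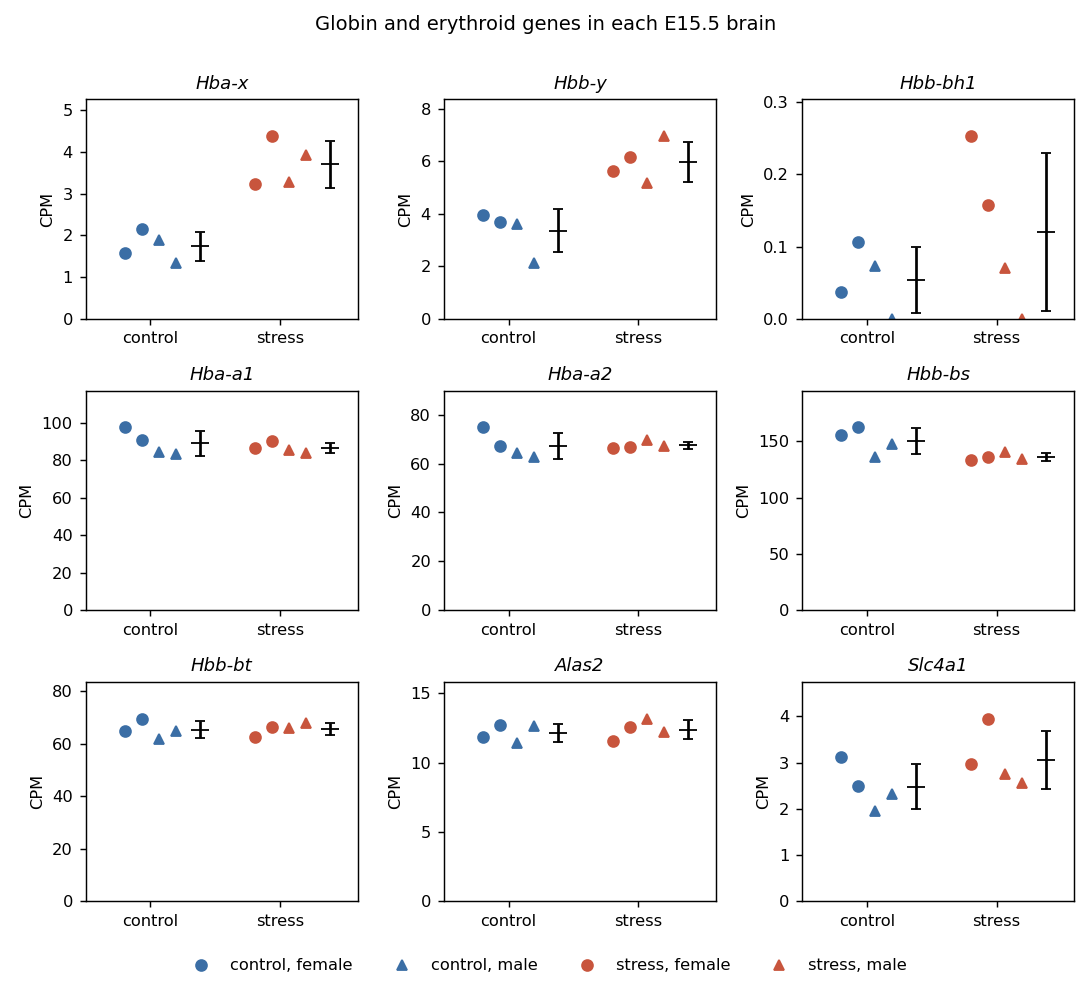
CPM (linear axes from 0) of the 9 genes in each brain, with circles for females, triangles for males, and the mean ± SD of each group (n = 4) in black. Hba-x and Hbb-y are the only panels in which all 4 stressed brains lie above all 4 control brains.

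The adult globins showed no such gap. Hba-a1, an adult alpha globin gene, was read at 97.6, 90.9, 84.4 and 83.4 CPM in control F36, F37, M30 and M31 and at 86.6, 90.4, 85.3 and 83.7 CPM in stressed F34, F35, M28 and M29. Its near copy Hba-a2 was read at 74.8, 67.4, 64.4 and 62.5 CPM in the controls and at 66.3, 66.9, 69.6 and 67.4 CPM under stress. For both genes the stressed brains lay inside the range of the controls, with log2 differences of -0.04 (SE 0.03) and 0.01 (SE 0.04).

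Hbb-bs, the more abundant adult beta globin gene, was read at 155, 162, 136 and 148 CPM in the controls and at 133, 136, 141 and 135 CPM in the stressed brains. The 2 control females were the highest of the 8 brains, and control M30 lay within the stressed range. Means were 150 ± 11.3 CPM (SD, n = 4) and 136 ± 3.23 CPM (SD, n = 4), a log2 difference of -0.14 (SE 0.04). Without control F37, the highest brain, that difference was -0.11. Hbb-bt, the other adult beta globin gene, was read at 64.9, 69.4, 61.7 and 64.9 CPM in the controls and at 62.4, 66.2, 65.9 and 67.7 CPM under stress, and its groups overlapped (log2 difference 0.01, SE 0.04).

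Alas2 encodes the erythroid form of the enzyme that begins heme synthesis. It was read at 11.8, 12.7, 11.4 and 12.6 CPM in the controls and at 11.6, 12.6, 13.2 and 12.2 CPM in the stressed brains, a log2 difference of 0.03 (SE 0.07) with overlapping groups. Slc4a1 encodes band 3, the chloride and bicarbonate exchanger of the red cell membrane. It was read at 3.13, 2.50, 1.96 and 2.32 CPM in the controls and at 2.97, 3.95, 2.75 and 2.55 CPM under stress, a log2 difference of 0.30 (SE 0.13). Stressed F35 was the highest brain for Slc4a1 and control M30 the lowest, and the groups overlapped.

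Over all genes tested, 13.8% were called between stressed and control brains at an adjusted p under 0.05, with 6.49% called higher and 7.27% called lower, and 16.4% had groups that did not overlap. Among the 8 tested members, Hba-x and Hbb-y were called higher, Hbb-bs was called lower, and the groups of 2 members did not overlap. Nothing is read from these counts, because the members were chosen on this contrast. Hba-x stood at place 9 and Hbb-y at place 34 when the 17865 tested genes were ordered from the highest log2 difference down. Hbb-bs was not called without control F37, without stressed F34 or in the 4 males alone, where its log2 difference was -0.04.

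**Figure D2:**
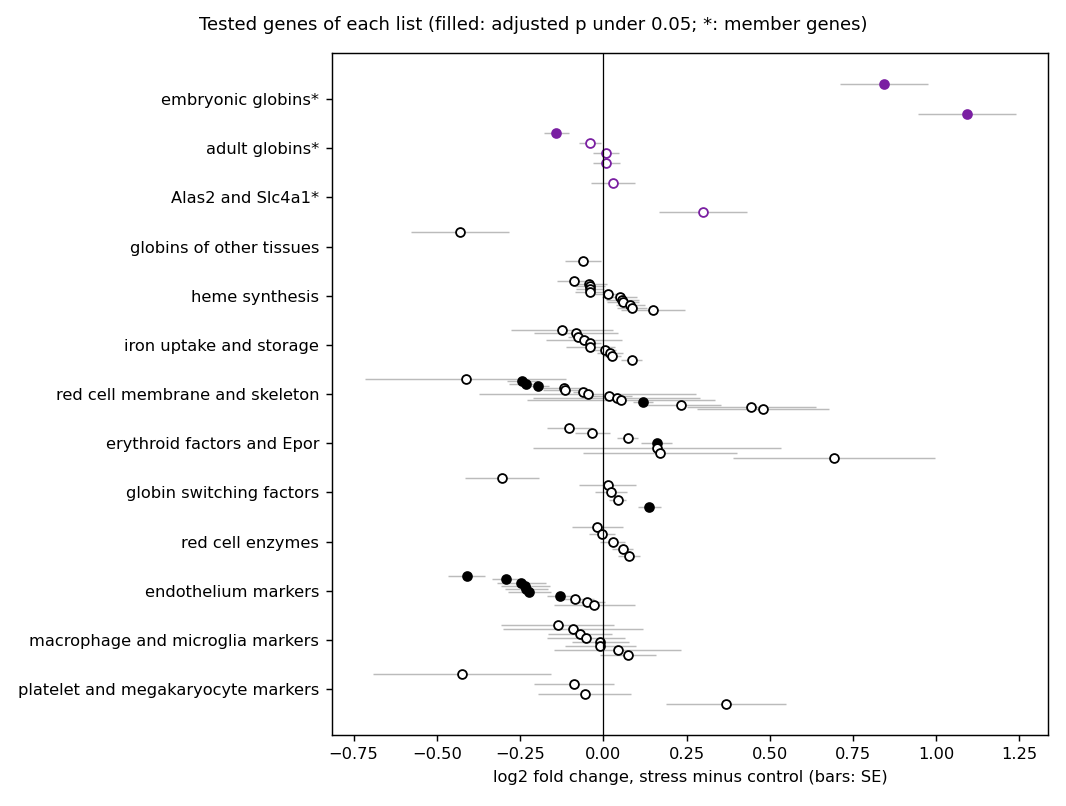
Log2 difference (stress minus control, bars SE) of each tested gene of the members and of 10 other lists, with filled points for an adjusted p under 0.05. Hba-x and Hbb-y, at 1.09 and 0.84, lie farther right than any other gene plotted, and 7 endothelial genes lie to the left of 0 as filled points.

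Levels of different genes can be compared only per exon length. On the scale of CPM per kb of exon, averaged over the 8 brains, Hbb-bs was at 187 ± 14.1 (SD, n = 8), Hba-a1 at 108 ± 6.02, Hba-a2 at 101 ± 5.52 and Hbb-bt at 93.0 ± 3.63. The next levels were those of Hbb-y at 7.38 ± 2.51, Alas2 at 5.10 ± 0.254, Hba-x at 2.90 ± 1.21, Slc4a1 at 0.565 ± 0.123 and Hbb-bh1 at 0.142 ± 0.140. Ranges over the brains overlapped between Hba-a1 and Hba-a2, between Hba-a2 and Hbb-bt, between Hbb-y and Alas2 and between Slc4a1 and Hbb-bh1, and did not overlap between the other neighbours in this order. Per kb of full exon length, Hba-a1 read above Hba-a2 in each of the 8 brains, by a ratio of 1.01 to 1.11. This scale ignores the sequence that these genes share, which is a larger part of Hba-a2 (74.5% of transcript windows) than of Hba-a1 (56.5%). Which of them was higher is therefore not settled.

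The close copies limit how far the adult genes can be told apart. Of the 100-base windows of the Hba-a1 transcript, 56.5% were also found in Hba-a2, and 74.5% of those of Hba-a2 were found in Hba-a1. For Hbb-bs and Hbb-bt the shares were 62.6% and 54.8%. The aligned stretches were 99.8% identical for the alpha pair and 93.3% identical for the beta pair. No window of Hba-x, Hbb-y, Hbb-bh1, Alas2 or Slc4a1 occurred in another gene, and the aligned stretches were 66.0% identical between Hba-x and Hba-a1 and 73.4% identical between Hbb-y and Hbb-bs. The counting named no option for reads that map to several places, and such reads are left out by the default of the tool, so the adult levels, and any ratio of embryonic to adult RNA, depend on the reads that could be placed.

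**Figure D3:**
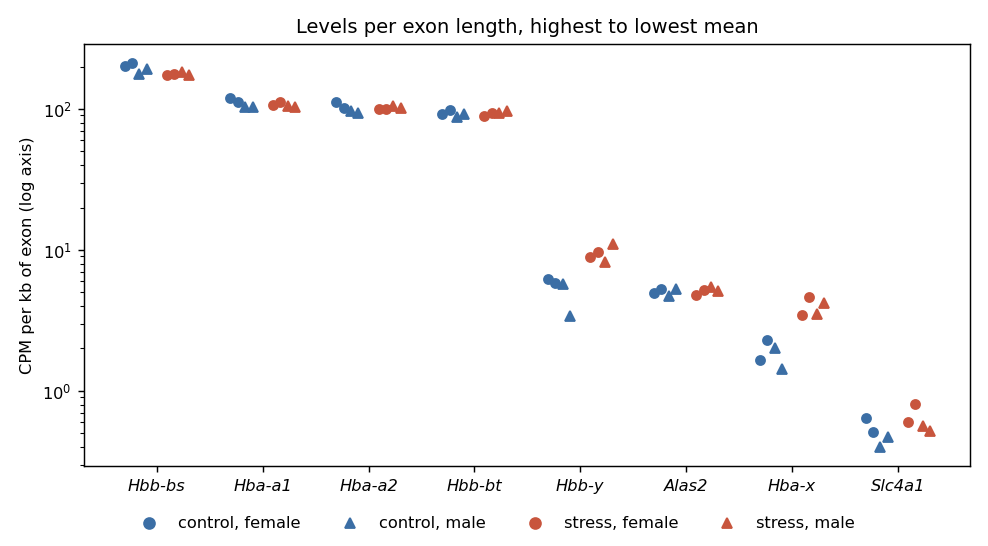
CPM per kb of exon (log axis) of the 8 tested genes in each brain, ordered by mean level, with controls left and stressed brains right of each gene name. The 4 adult globins form the upper group at 87.7 and above, and Hbb-y and Hba-x are the only genes whose stressed brains all lie above their controls.

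The share of embryonic RNA among globin RNA was higher in each stressed brain than in any control brain, in both chain families. Among beta-like RNA per kb, Hbb-y and Hbb-bh1 made up 2.102%, 1.901%, 2.16% and 1.17% in control F36, F37, M30 and M31 and 3.43%, 3.55%, 2.91% and 3.89% in stressed F34, F35, M28 and M29. The group means were 1.83% ± 0.453 and 3.45% ± 0.407 (SD, n = 4 each). Among alpha-like RNA per kb, Hba-x made up 0.712%, 1.06%, 0.992% and 0.719% in the controls and 1.64%, 2.16%, 1.64% and 2.01% in the stressed brains, with means of 0.872% ± 0.183 and 1.86% ± 0.265 (SD, n = 4 each). Adult RNA made up at least 96.1% of beta-like and 97.8% of alpha-like RNA in every brain.

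The counts behind these shares set their precision. As shares of raw counts, the highest control brain for the beta family was M30, with 102 of 5557 counts (1.84%, Wilson 95% interval 1.51% to 2.22%), and the lowest stressed brain was M28, with 151 of 6086 (2.48%, 2.12% to 2.90%), so these intervals met. For the alpha family the highest control brain was F37, with 61 of 4555 counts (1.34%, Wilson 95% interval 1.04% to 1.72%), and the lowest stressed brain was F34, with 89 of 4317 (2.06%, 1.68% to 2.53%), and these also met. The intervals cover counting error only, since reads carried no molecular identifiers.

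**Figure D4:**
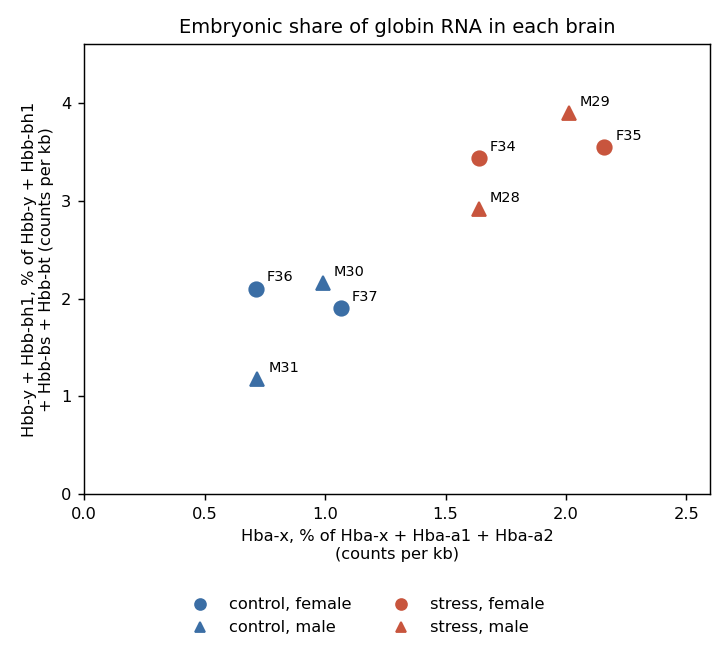
Embryonic share of alpha-like RNA (x axis, %) against that of beta-like RNA (y axis, %), in counts per kb, 1 point per brain, circles for females and triangles for males. The control brains lie at or below 1.06% and 2.16%, and the stressed brains at or above 1.64% and 2.91%.

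Other ratios within the globin set moved less. Alpha-like to beta-like RNA per kb stood at 0.723 ± 0.0476 in controls and 0.756 ± 0.0170 under stress (SD, n = 4 each), with overlapping ranges. Hbb-y to Hba-x per kb was 2.88 ± 0.613 and 2.41 ± 0.253, also overlapping. Hbb-bs to Hbb-bt per kb ran from 2.02 to 2.19 in the controls and from 1.82 to 1.96 in the stressed brains, and these ranges did not overlap.

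The control brains varied more than the stressed brains in adult globin RNA. The coefficient of variation of Hbb-bs was 7.52% over the controls and 2.37% over the stressed brains, where counting alone gives 1.54% and 1.63%. For Hba-a2 it was 8.07% against 2.11%, and for Hba-a1 7.39% against 3.28%. Alas2 varied by 5.14% and 5.37%, no more than its counting error of 5.42% and 5.40%. With 4 littermates per group, these spreads were not tested against each other.

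Sex was a comparison that the choice of genes did not use. No member was called between males and females by edgeR's quasi-likelihood test, where 0.0896% of all tested genes were called, and 2 of the 8 tested members, Hba-a1 and Slc4a1, had an unadjusted p under 0.05, as did 5.91% of all tested genes. DESeq2 called none either. Hba-a1 averaged 91.4 ± 4.56 CPM in females and 84.2 ± 0.856 CPM in males (SD, n = 4 each), a log2 difference of -0.12 (SE 0.03) with an adjusted p of 0.47 in edgeR's quasi-likelihood test, and the adjusted p lay between 0.23 and 0.9998 over the alternatives run. Slc4a1 averaged 3.13 ± 0.602 CPM in females and 2.39 ± 0.341 CPM in males, a log2 difference of -0.38 (SE 0.13) with an adjusted p of 0.71 in the same edgeR test and 0.52 to 0.9998 over the alternatives. Hba-x and Hbb-y differed between the sexes by log2 -0.12 (SE 0.15) and -0.14 (SE 0.13), with adjusted p-values of 0.94 and 0.91 from edgeR.

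The difference between stressed and control brains was also compared between the sexes. Hba-x was higher under stress by log2 1.02 (SE 0.20) in females and 1.16 (SE 0.20) in males, and Hbb-y by 0.62 (SE 0.14) and 1.08 (SE 0.18). The sex by stress interaction was 0.14 (SE 0.30) for Hba-x and 0.46 (SE 0.26) for Hbb-y, with adjusted p-values of 0.97 and 0.82 in edgeR's quasi-likelihood test. For the adult globins the log2 difference was lower in females than in males: -0.24 (SE 0.04) against -0.04 (SE 0.04) for Hbb-bs, -0.09 (SE 0.05) against 0.11 (SE 0.05) for Hba-a2, -0.09 (SE 0.05) against 0.01 (SE 0.04) for Hba-a1 and -0.06 (SE 0.05) against 0.08 (SE 0.05) for Hbb-bt. No member passed the interaction test, in which 0.0056% of all tested genes were called by edgeR. Hbb-bs and Hba-a2 had an unadjusted p under 0.05, as did 6.31% of all tested genes, with adjusted p-values of 0.51 and 0.58 in edgeR's quasi-likelihood test, which ran from 0.18 to 0.9999 and from 0.41 to 0.9999 over the alternatives.

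**Figure D5:**
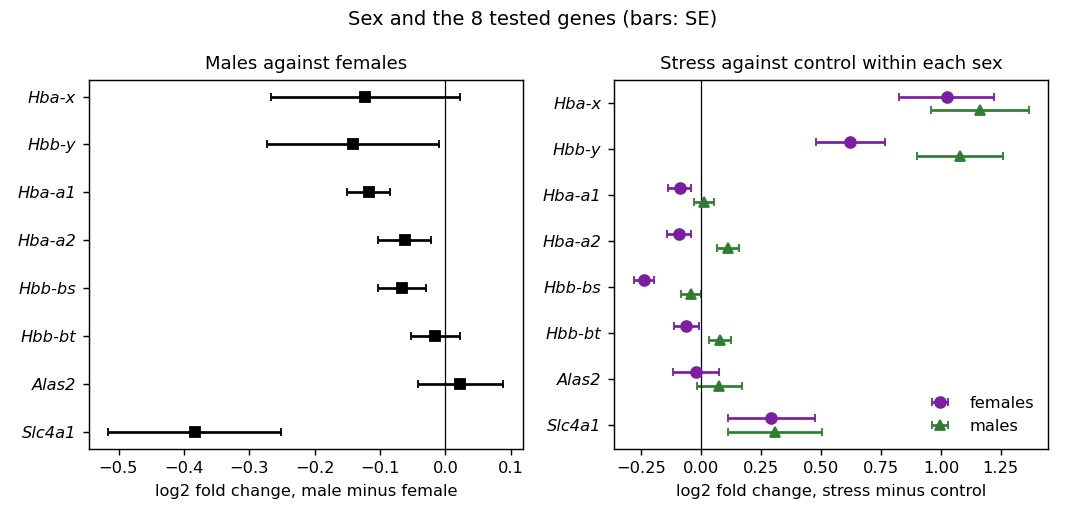
Left, log2 difference between males and females of the 8 tested genes, and right, log2 difference between stressed and control brains in females (circles) and males (triangles), with SE bars. Hba-x and Hbb-y lie to the right of 0 in both sexes, while the 4 adult globins lie further left in females than in males.

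The remaining genes of the hemoglobin and red cell program, taken from lists of known function, had calls in both directions. Of 72 such genes in 7 lists, 54 were tested, of which 3 were called higher and 3 lower, or 11.1% against the 13.8% called among all genes. Their median log2 difference was 0.02, beside 0.00 over all genes tested.

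None of the other listed alpha-like and beta-like globin genes and pseudogenes passed the filter. The pseudogenes Hba-ps3 and Hba-ps4 lie outside the globin clusters, on chromosomes 15 and 17. Hbb-bh0, Hbb-bh2, Hbb-bh3 and the alpha pseudogene Hba-ps3 had no count in any brain, and the theta-like genes Hbq1a and Hbq1b and the pseudogene Hba-ps4 averaged 0.120, 0.148 and 0.255 CPM. Among globins of other tissues, neuroglobin (Ngb) averaged 2.28 ± 0.244 CPM in controls and 1.69 ± 0.138 CPM under stress (SD, n = 4 each, log2 difference -0.43, SE 0.15, adjusted p = 0.050 by edgeR's quasi-likelihood test) and was not called. Cytoglobin (Cygb) averaged 19.3 CPM and was not called, and myoglobin (Mb) averaged 0.203 CPM and was not tested.

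No gene of heme synthesis was called. All 12 were tested, from Alas1, the form of the first enzyme used outside red cells, to Fech, which inserts the iron, and their log2 differences ran from -0.09 to 0.15 around a median of 0.03. Ppox, Alas1 and the mitochondrial transporter Abcb10 were the most abundant, at 37.6, 37.4 and 35.5 CPM. Of 10 genes for iron uptake and storage none was called either, with the ferritin chains Ftl1 and Fth1 at 430 and 317 CPM, the iron sensor Ireb2 at 235 CPM, and log2 differences from -0.12 to 0.09.

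In the list of red cell membrane and skeleton genes, 15 of 20 were tested, 3 fell and 1 rose, where 7.27% of all genes fell and 6.49% rose. Ank1 (ankyrin, log2 difference -0.24, SE 0.05), Sptb (beta spectrin, -0.23, SE 0.05) and Dmtn (dematin, -0.20, SE 0.03) fell, with adjusted p-values of 0.00075, 0.0032 and 0.00023 in edgeR's quasi-likelihood test. Epb41 (protein 4.1) rose by log2 0.12 (SE 0.03, adjusted p = 0.0074 by the same edgeR test). These 4 genes also have known roles in the skeleton of neurons, and stood at 30.5, 41.3, 87.0 and 211 CPM. Add2, the most abundant of the list at 387 CPM, was not called. In the 4 females alone Sptb and Epb41 were not called, at log2 differences of -0.19 and 0.12.

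Of the 11 genes listed as erythroid transcription factors and receptor, 7 were tested and Tal1 alone was called, rising by log2 0.16 (SE 0.05, adjusted p = 0.021 by edgeR's quasi-likelihood test). Tal1 was called in 8 of 16 settings, and DESeq2 did not call it. Its mean level was 30.4 CPM, beside 0.361 CPM for Klf1 and 0.0488 CPM for Gata1. Which cells the Tal1 reads came from was not tested. Ldb1 and Lmo2, which form a complex with Tal1 in blood cells, stood at 261 and 18.6 CPM and were not called. Klf1, the factor that activates adult beta globin, had 5 to 15 counts per brain, and Gata1, the master regulator of red cell genes, had 0 to 3. Of the 5 factors listed for globin switching, which regulate embryonic against adult globin genes, Sox6 rose by log2 0.14 (SE 0.04, adjusted p = 0.0087 by edgeR's quasi-likelihood test), while Bcl11a at 285 CPM and Zbtb7a at 23.6 CPM were not called. The call of Sox6 was lost without stressed F34 and in the 4 males alone (log2 differences 0.11 and 0.07). Sox6 and Bcl11a are also expressed in brain cells. None of the 5 tested red cell enzymes was called, the most abundant being Prdx2, Cat and Bpgm at 579, 72.8 and 67.1 CPM.

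Genes that define nucleated red cells were scarce. Of 14 such genes 6 passed the filter, and Sptb, which neurons also express, was the only one called. Apart from Sptb, the most abundant were Ermap at 1.18 CPM and Tspo2 at 1.13 CPM. Icam4 had no count, but 100% of its exon bases were shared with Gm47079. Its lack of counts therefore says nothing on its level. Ermap, Tspo2 and Trim10 had log2 differences of 0.44 (SE 0.19), 0.48 (SE 0.20) and 0.69 (SE 0.30), none of which was called, with adjusted p-values of 0.13, 0.11 and 0.14 by edgeR's quasi-likelihood test.

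Most endothelial genes were lower in the stressed brains than in the controls. Of 10 endothelial markers, 7 fell and none rose, where 7.27% of all genes fell: Flt1, Kdr, Egfl7, Tek, Esam, Ramp2 and Cldn5, with log2 differences from -0.41 (SE 0.06) for Flt1 to -0.13 (SE 0.04) for Cldn5 and adjusted p-values from 2.2e-05 to 0.036 by edgeR's quasi-likelihood test. Pecam1, Cdh5 and Emcn were not called, at log2 differences of -0.09 (SE 0.06), -0.05 (SE 0.05) and -0.03 (SE 0.12). The summed level of the 10 markers lay between 191.0 and 206 CPM in the controls and between 165 and 177 CPM in the stressed brains. These ranges did not overlap, and no marker was at 0. The summed adult globins lay between 346 and 393 CPM in the controls and between 349 and 362 CPM under stress, and the summed embryonic globins between 3.48 and 5.95 CPM and between 8.53 and 10.9 CPM. The part of the vessels in the globin values was not tested.

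No tested marker of other blood and liver cells was called. None of 8 macrophage and microglia markers was called, and their summed level lay between 33.99 and 36.8 CPM in controls and 33.3 and 37.04 CPM under stress, led by Csf1r at 10.6 CPM, Cx3cr1 at 6.90 CPM and C1qb at 5.20 CPM. None of the 4 tested platelet and megakaryocyte markers was called, with sums of 7.71 to 8.95 and 7.73 to 9.15 CPM, led by Itga2b, Itgb3 and Gp1ba at 3.33, 2.08 and 1.77 CPM. Neutrophil markers were near 0, with sums of 0.217 to 0.632 and 0.207 to 0.522 CPM and no gene above 0.0890 CPM on average. None of these 8 markers passed the filter on low counts, so none was tested. Liver markers summed to at most 1.14 CPM, with albumin (Alb) at 0 or 1 count per brain, and 2 of the 5 were tested. Among brain markers 7 of 12 rose, against 6.49% of all genes. Among them were the progenitor genes Eomes, Nes, Pax6, Vim and Sox2 and the neuronal gene Tbr1, by log2 0.11 to 0.25. The progenitor gene Hes5 was not called and went the other way (log2 difference -0.10, SE 0.08). Tubb3, the most abundant at 1793 CPM, and Neurod6 at 365 CPM were also not called.

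The genes whose level varied most like a globin within the groups differed between an adult and an embryonic globin. Likeness was the Pearson correlation over the 8 brains of log2 CPM after each group mean was removed, and it is a description, since all points share their libraries and few brains stand behind it. Among 17864 genes, the 5 nearest to Hbb-bs outside the members were Gm44957, Tmem120a, Pik3r5, Ndufs7 and Gm45094 (r from 0.95 to 0.98), and 3 of them averaged below 1 CPM. The 5 nearest to Hba-x were Gm45169, C030006N10Rik, Ifnlr1, Araf and Gm47842 (r from 0.96 to 0.98), of which Araf alone, at 159 CPM, was abundant. Among the members, Hbb-bt was the nearest to Hbb-bs (r = 0.79, place 260) and Hbb-y the nearest to Hba-x (r = 0.69, place 558). Hba-x and Hbb-bs had r = 0.12 with each other. With sex means removed as well, Hbb-y kept r = 0.66 with Hba-x, while Hba-a1 moved from 0.57 to -0.28 with Hbb-bs. The member nearest to Hbb-bs was then Alas2 (r = 0.94, against 0.64 for Hbb-bt). By Spearman correlation within the groups it was Hba-a2 (0.83, against 0.67 for Hbb-bt).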

How the data were processed

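E15.5 brains were profiled by poly(A) RNA-seq with paired reads. Per the methods and labels, the authors trimmed reads with Trim Galore, aligned them with TopHat2 (2.1.1) to mm10 with GENCODE vM20 and deposited raw counts per gene from featureCounts (1.6.3), over exons and without a strand option. Gene IDs were matched to symbols (54723 of 54752). Counts were filtered (edgeR filterByExpr, minimum count 10), leaving 17865 genes, scaled by TMM and fitted with edgeR 4.0.16 (quasi-likelihood test, R 4.3.3) on condition and sex, or with their interaction, over all 8 brains. Benjamini-Hochberg adjustment ran over all tested genes, at a threshold of 0.05. CPM are TMM-scaled. DESeq2 1.42.0, other scalings and filters, each sex alone and leaving out each brain were alternatives. The 9 genes and the gene lists were chosen with earlier results of these data known. In text, the 9 genes, called genes and the 3 most abundant of each list, and the 5 genes most like Hbb-bs and Hba-x are named. Ermap, Tspo2 and Trim10, and a few genes of low counts, were named after their values were seen. Shared 100-base windows came from GENCODE vM21 transcripts. The remaining animals of the study are not analysed here.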

Additional observations from a re-analysis of the deposited data

Results flagged for a closer look

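Hba-a2 differed in direction between the sexes. In females both stressed brains lay below both control brains, and in males both stressed brains lay above both control brains. The interaction was log2 0.20 (SE 0.07), with an unadjusted p of 0.0078 and an adjusted p of 0.58 over all genes in edgeR's quasi-likelihood test, and Hba-a2 shares most of its transcript windows with Hba-a1, whose interaction was 0.10 (SE 0.06). Among the 18 gene and group combinations examined, no brain stood apart from the other 3 of its group by Dixon's criterion.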

How the results depend on the processing

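Over the 16 settings the log2 differences of Hba-x and Hbb-y ran from 0.990 to 1.204 and from 0.62 to 1.08. Their groups did not overlap, so leaving out a brain or taking each sex alone could not reverse the direction. These ranges describe the size of the difference only. Hbb-bs was lower in all 16 settings, from -0.24 to -0.04. Hba-a1, Hba-a2, Hbb-bt and Alas2 took both signs across settings. The embryonic shares differed by 1.61 percentage points (beta, 1.39 to 1.79 when each brain was left out) and 0.990 percentage points (alpha, 0.891 to 1.07), and the alpha difference was 1.25 percentage points with raw counts. Counts of called genes moved more. Against 1160 higher and 1298 lower, DESeq2 called 748 higher, the 4 males alone gave 664 higher, and the 4 females alone gave 295 higher and 407 lower. Leaving out each brain gave 736 to 1057 higher and 854 to 1308 lower, lowest in both cases without stressed M29. Between males and females, 6 were higher and 10 lower in males, 23 and 41 without the filter on low counts, and 5 to 8 and 5 to 15 when each brain was left out. The interaction called 1 gene (1128 at an unadjusted p under 0.05), DESeq2 called 2, and 21 and 16 in either direction passed without the filter. No paired analysis was possible because replicate labels are not shared between groups. Counts limit Hbb-bh1, which was at the floor, and the near-identical adult copies limit their separation.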
